A study of Mus musculus with 6 samples.

Results

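The genes described here are 29 markers and regulators of cortical neuron differentiation, chosen by name and looked up in the authors' list that ties Bcl6 peaks to genes. They are transcription factors (Tbr1, Neurod1, Neurod2, Neurod4, Neurod6, Bcl11a, Bcl11b, Cux1, Cux2, Pou3f2, Pou3f3, Nhlh1, Nhlh2, Insm1, Myt1 and Myt1l), RNA-binding proteins (Rbfox3, Elavl3 and Elavl4), cytoskeletal proteins (Dcx, Tubb3, Map2 and Stmn2), and genes of transmission and secretion (Syn1, Slc17a6, Slc17a7, Gad1, Gad2 and Reln). Of the 29 genes, 7 had a listed peak and 22 had 0. The 7 genes held 9 of the 3878 peaks. They were Cux1, Cux2, Pou3f2, Myt1l, Elavl3, Elavl4 and Slc17a7.

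Bcl6 binding was measured by chromatin immunoprecipitation and sequencing (ChIP-seq), which counts DNA fragments pulled down with an antibody and compares them with unselected input DNA. The groups were 3 Bcl6 ChIP libraries and 3 input libraries. All 6 came from the same mouse embryonic stem (ES) cell line, A2 lox.Cre Bcl6, in which a Bcl6 transgene is switched on by tetracycline derivatives. The cells had been differentiated to day 12 into cortical progenitors, with cyclopamine, an inhibitor of hedgehog signalling, in the medium for part of that time, and then kept for 24 h with 1 µg/ml doxycycline to induce Bcl6. Binding in cells without doxycycline was not analysed here. Bcl6 made by the transgene and by the cells' own gene cannot be told apart. The labels name no separate clones, so the values describe this line. The data are of DNA binding and hold no RNA level, so the cells' identity was not checked against markers.

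Bcl6 is a zinc finger repressor that binds DNA directly. In the developing cortex it is known to push progenitors towards neurogenesis. Neuron differentiation follows a cascade in which basic helix-loop-helix factors such as those of the Neurod family act early, homeobox and zinc finger factors then set the identity of cortical layers, and structural, RNA-binding and synaptic genes carry out the neuronal programme. The screen asked which genes Bcl6 sits beside in progenitors, and the values below say which genes of this cascade were among them.

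Peaks were called by the authors once, on pooled ChIP against pooled input, which leaves no replicate error and no test over samples. With duplicate tags removed, 11718276 tags (20.6% of the total) remained in the pooled ChIP and 5048582 (39.4%) in the pooled input. Fold enrichment is the authors' ratio of ChIP over the local input background. The score is −10 log10 of the p-value given by MACS, the program that called the peaks, and its lowest value over all peaks was 50.03. Intervals on tag counts below are exact 95% Poisson intervals and cover counting error only.

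A listed peak was found for 24.1% of the 29 neuron genes, against 20.1% of all 21887 protein-coding genes and 8.95% of all annotated genes. All 29 are protein-coding, and the share is near that of protein-coding genes, so the count is not a result about neuron genes. A peak centred within 1 kb of the listed transcription start site (TSS) was found for 1 neuron gene, Cux1, which is 3.45% of the 29, against 10.8% of all protein-coding genes. Within 2 kb and within 5 kb it was found for 3 neuron genes (10.3%), Cux1, Elavl3 and Slc17a7, against 11.6% and 12.8% of all. The gap to all genes thus depended on the window and was small in these windows. The same 3 genes (10.3%) had a listed peak within 50 kb, against 17.1% of all, a wider gap again. At least 2 listed peaks were found for 2 neuron genes, Cux1 and Elavl3, or 6.90%, against 4.1% of all. No test of these shares was made, since the genes were chosen with results of these data known.

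Many of the peaks listed for the neuron genes lay far from the promoter, and most of these lay nearer to another gene. Of the 9 pairs of peak and neuron gene, 5 (55.6%) were over 50 kb from the listed TSS, against 21.2% of the 5801 pairs of the whole list. For 4 of these 5 peaks another listed gene had the nearer TSS, so with each peak given to its nearest listed gene 1 was left, that of Pou3f2. The share over all matched pairs was then 8.91%. Fewer pairs remained for the neuron genes as well, so the count of 1 is not a share to set beside it. With scores at or above the median of all peaks 1 was left too, again that of Pou3f2, where the share over all matched pairs was 20.4%. The median distance was 111 kb for the neuron genes and 3.93 kb for all pairs. A listed peak over 50 kb away was found for 5 of the 29 neuron genes (17.2%), against 4.26% of all protein-coding genes. For 4 of these, Cux2, Pou3f2, Myt1l and Elavl4, all listed peaks were that far away, which is 13.8% of the 29, against 3.01% of all.

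The authors' list reaches up to 1 Mb from a TSS where no other gene lies between, so the free space around a gene bears on how far its listed peaks can lie. The gaps to the neighbouring protein-coding genes on both sides summed to a median of 153 kb for the neuron genes and 48.0 kb for all protein-coding genes. The neuron genes with a listed peak had a median of 123 kb and those with 0 had a median of 154 kb. These gaps leave out the gene itself, so they do not bound the listed distances. For Cux2 the gaps summed to 45.7 kb, while its listed peak was 111 kb from the TSS, inside the gene. The part of the spacing in the distances was not tested.

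**Figure D1:**
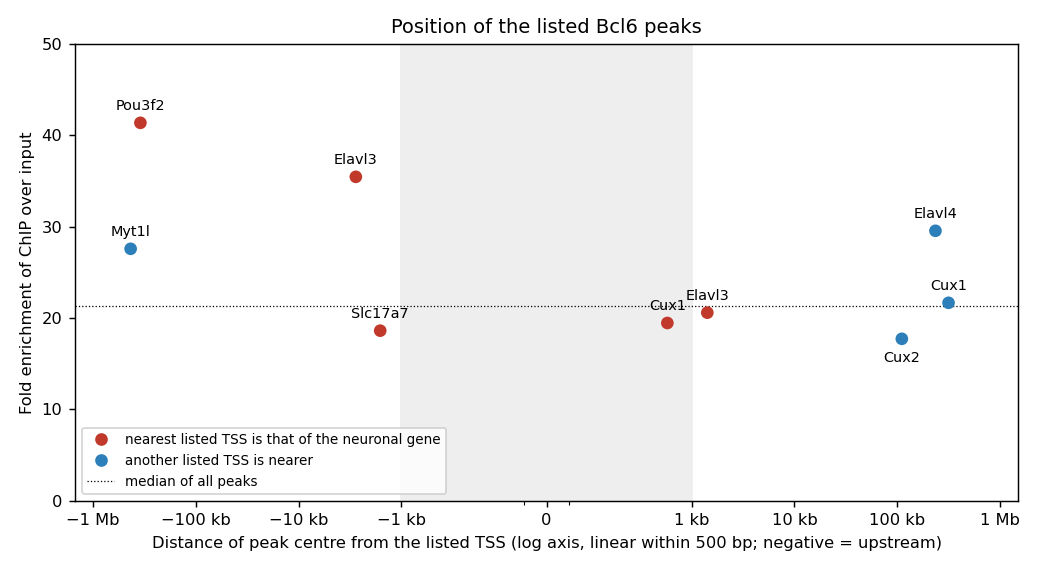
Fold enrichment of the 9 peaks listed for neuron genes against the signed distance of the peak centre from the listed TSS (log axis, linear near 0, grey band within 1 kb). Blue points are peaks for which another listed gene had the nearer TSS. The Cux1 peak at 580 bp alone falls in the band, and 5 peaks lie over 50 kb away.

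Among the 16 transcription factors, 4 (25%) had listed peaks, 5 in all, against 20.1% of all protein-coding genes. The homeobox gene Cux1, a factor of upper-layer cortical neurons, had the promoter peak. It lay on chromosome 5 from 136565908 to 136567907 (mm10), with 85 tags (67.9 to 105), 19.5-fold enrichment and a score of 128. It was the widest of the 9 peaks at 2000 bp, and its score stood at percentile 85.6 of all peaks, the highest of the 9. Its fold was ordinary, at percentile 40.6.

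The Cux1 peak covered 2 annotated starts. The listed TSS lay inside the peak, and its centre was 580 bp and its summit 776 bp downstream of it. A second start, that of the RefSeq promoter window, lay 1506 bp downstream of the listed TSS and also inside the peak. That window, 250 bases before to 50 bases after the start, is shown because it was the only promoter window of a neuron gene overlapped by a peak. It is at chr5:136565932-136566231 (GRCm38.p6, the build of mm10) on the minus strand, with the transcribed bases in capitals.
Cux1: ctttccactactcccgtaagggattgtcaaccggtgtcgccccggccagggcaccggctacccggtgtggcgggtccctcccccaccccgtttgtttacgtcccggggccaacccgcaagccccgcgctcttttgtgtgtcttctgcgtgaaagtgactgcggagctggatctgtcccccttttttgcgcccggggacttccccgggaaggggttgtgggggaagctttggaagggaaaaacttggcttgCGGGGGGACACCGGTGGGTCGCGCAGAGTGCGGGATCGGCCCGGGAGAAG
The window had 65.0% GC and 25 CG pairs.

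Cux1 had another peak at the far end of the gene, on chromosome 5 from 136250758 to 136251732. Its centre was 316 kb downstream of the TSS and 3110 bp before the end of the annotated gene interval. It had 29 tags (19.4 to 41.6), 21.7-fold enrichment and a score of 53.8. The peak was also listed for Sh2b2, which encodes a signalling adaptor, whose TSS was much nearer at 6342 bp. It overlapped the lncRNA gene Gm30408 as well. The peak at the far end thus had the higher fold and the promoter peak the higher tag count and score. The tag intervals of the 2 peaks did not overlap, but the promoter peak was also wider, at 2000 bp against 975 bp. Per kb of width the promoter peak held 42.5 tags and the peak at the far end 29.7.

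Cux2, the other Cux gene and also a factor of upper layers, had 1 peak, on chromosome 5 from 121938327 to 121939287. It was centred inside the gene interval, 111 kb downstream of the TSS, with 28 tags (18.6 to 40.5), 17.7-fold enrichment and a score of 54.5. The fold and the tag count were the lowest of the 9 peaks. Fam109a was listed for the same peak and had the nearer TSS, at 89.8 kb. A listed peak over 50 kb from the TSS and centred inside the gene was found for 2 of the 29 neuron genes, Cux1 and Cux2, or 6.90%, against 0.736% of all protein-coding genes. Only genes longer than 50 kb can meet this rule, and among those it was 2 of 14 neuron genes (14.3%), against 3.26% of all, a comparison added after seeing the data. Both peaks were nearer to another listed TSS, and with each peak given to its nearest listed gene neither counts. Exon positions were not used here, so exons and introns were not told apart.

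Pou3f2 (Brn2), a POU factor of upper-layer neurons that is also expressed in progenitors, had the highest fold of the group. Its peak, on chromosome 4 from 22835195 to 22836059, had 36 tags (25.2 to 49.8), 41.4-fold enrichment at percentile 94.1 of all peaks, and a score of 83.8. It lay 347 kb upstream of the TSS and overlapped the interval of the lncRNA gene Gm42262. No other gene was listed for it. The gaps around Pou3f2 summed to 2056 kb, more than around 98.9% of protein-coding genes.

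Myt1l, a zinc finger factor that represses non-neuronal genes in neurons, had a peak still farther away. It was on chromosome 12 from 29095725 to 29096586, 432 kb upstream of the TSS, with 31 tags (21.1 to 44.0), 27.6-fold enrichment and a score of 67.4. Tssc1 was listed for the same peak and had the nearer TSS, at 344 kb. The related Myt1 had 0 listed peaks.

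Among the 3 RNA-binding genes, Elavl3 and Elavl4 had listed peaks and Rbfox3 (NeuN) had 0. That is 66.7%, against 20.1% of all protein-coding genes, but a class of 3 genes is too small for a result about it. Elavl3, which encodes the neuronal RNA-binding protein HuC, had peaks on both sides of its TSS. The upstream peak, on chromosome 9 from 22054266 to 22055341, was centred 2780 bp before the TSS. It had 38 tags (26.9 to 52.2), 35.5-fold enrichment and a score of 78.6. Its centre was 2.66 kb from the Elavl3 interval, and the gap to the next protein-coding gene on that side was 3.26 kb. The peak thus lay nearer to the interval of that neighbour, which was not listed for it. The downstream peak, from 22050086 to 22051121, was centred 1420 bp after the TSS inside the gene and had 33 tags (22.7 to 46.3), 20.6-fold enrichment and a score of 58.2. The folds differed while the tag intervals overlapped. Prkcsh was listed for the downstream peak too, at 47.6 kb.

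The Elavl3 promoter window lay in the 3144 bases between its peaks and overlapped neither. It is printed because its TSS matched the listed one and both peaks flanked it, at chr9:22051974-22052273 (GRCm38.p6) on the minus strand, with the transcribed bases in capitals.
Elavl3: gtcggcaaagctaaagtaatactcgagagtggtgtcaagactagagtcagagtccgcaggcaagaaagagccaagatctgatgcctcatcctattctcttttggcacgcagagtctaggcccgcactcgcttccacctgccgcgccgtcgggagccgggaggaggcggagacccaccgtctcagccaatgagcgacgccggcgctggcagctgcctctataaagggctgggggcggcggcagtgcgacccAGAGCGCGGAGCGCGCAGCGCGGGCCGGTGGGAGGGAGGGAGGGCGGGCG
The window had 65.3% GC and 29 CG pairs, close to the Cux1 window.

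Elavl4, which encodes the related protein HuD, had 1 peak, on chromosome 4 from 110050617 to 110051409. It was the narrowest of the 9 at 793 bp, with 29 tags (19.4 to 41.6), 29.6-fold enrichment and a score of 63.6. It lay 236 kb downstream of the listed TSS and 153 kb beyond the end of the gene. Dmrta2, a transcription factor that keeps cortical progenitors cycling, was listed for the same peak at 73.0 kb, nearer than Elavl4.

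Of the 6 transmission and secretion genes, 1 (16.7%) had a listed peak, near the 20.1% of all protein-coding genes, and that was Slc17a7. It encodes VGLUT1, the vesicular glutamate transporter of mature cortical neurons. The peak, on chromosome 7 from 45161712 to 45162911, had 51 tags (38.0 to 67.1), 18.6-fold enrichment and a score of 51.6. That score was the lowest of the 9 peaks and close to the lowest of all peaks. The peak ended 1010 bases before the TSS, with its centre 1610 bp upstream. No other gene was listed for it. The other glutamate transporter gene of the list, Slc17a6 (VGLUT2), had 0.

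**Figure D2:**
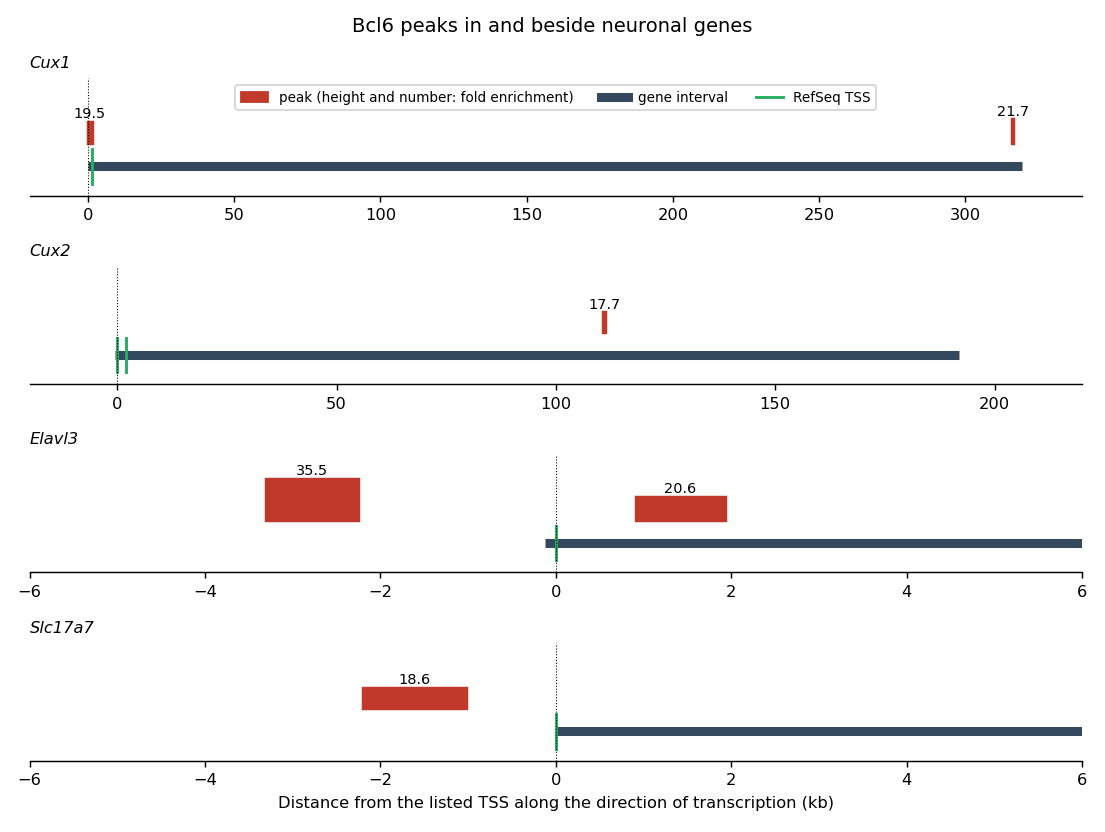
Position of the peaks of Cux1, Cux2, Elavl3 and Slc17a7 relative to the listed TSS, in kb along the direction of transcription. The dark bar is the annotated gene interval (cut at the panel's edge for Elavl3 and Slc17a7), green lines are RefSeq starts, and the height of each red box, with its number, is the fold enrichment. A peak covers the start of Cux1, and the starts of Elavl3 and Slc17a7 lie between or beside peaks.

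As a group, the 9 peaks were narrow and held few tags. Their median fold was 21.7 (range 17.7 to 41.4), against 21.3 for all peaks, and 5 of the 9 were above that median. Their median tag count was 33 (28 to 85), against 58 for all peaks, and 8 of the 9 were below it. Their median width was 975 bp (793 to 2000), against 1405 bp for all peaks, with 8 of the 9 narrower. Their median score was 63.6 (51.6 to 128), against 71.7 for all peaks, with 6 of the 9 lower. The authors' empirical FDR was 0.57 to 2.67% at the 9 peaks.

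Distance went with these values over all peaks too. The 5 peaks over 50 kb from the listed TSS of the neuron gene were 793 to 975 bp wide, with 28 to 36 tags and a median of 27.6-fold. Over all peaks that were over 50 kb from every listed TSS, the median width was 1078 bp, the median tag count 46 and the median fold 27.2. The 4 peaks within 5 kb of the TSS of Cux1, Elavl3 and Slc17a7 had a median of 20.0-fold, against 20.2-fold for all peaks within 5 kb of a TSS.

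**Figure D3:**
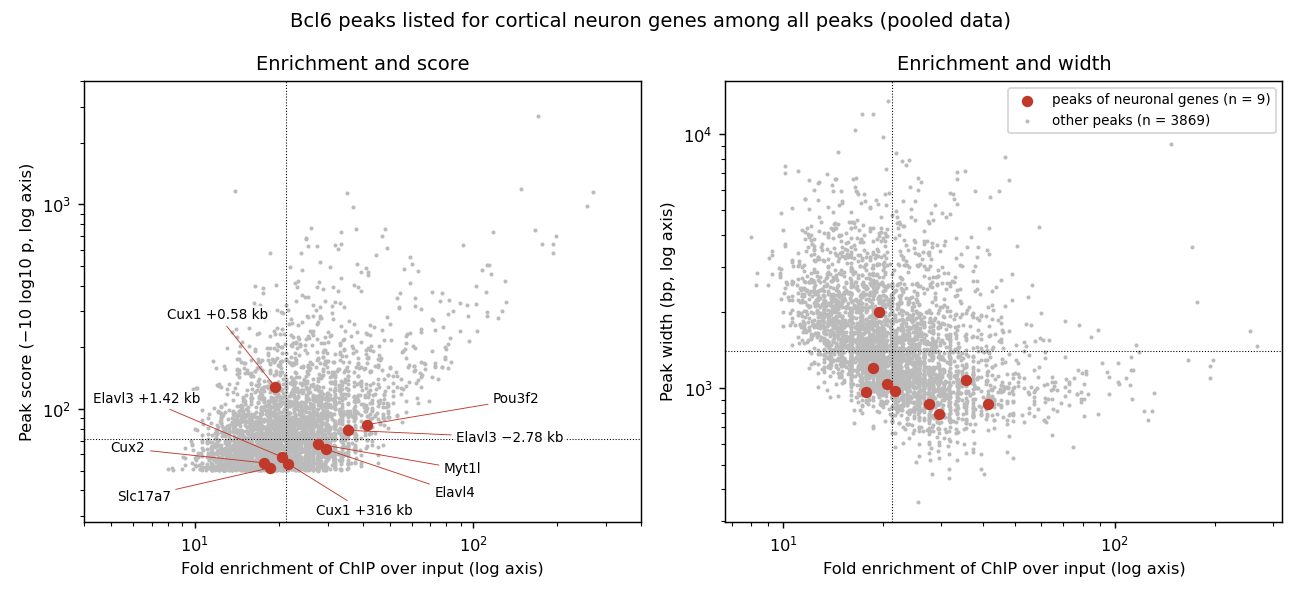
The 9 peaks of neuron genes (red) among all other peaks (grey), by fold enrichment and score on the left and by fold enrichment and width on the right, all on log axes. Dotted lines are the medians of all peaks, 21.3-fold, a score of 71.7 and 1405 bp. Of the 9 peaks, 8 lie below the median width and 6 below the median score.

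The 22 genes without a listed peak included the factors that act early in neuron differentiation. All 6 basic helix-loop-helix genes of the list, Neurod1, Neurod2, Neurod4, Neurod6, Nhlh1 and Nhlh2, had 0 listed peaks. Since 79.9% of all protein-coding genes had 0, such counts in small classes are near the background and are not results about those classes. Insm1, a zinc finger factor of newly formed neuronal precursors, the layer factors Tbr1, Bcl11a (Ctip1) and Bcl11b (Ctip2), and Pou3f3 (Brn1), the close relative of Pou3f2, had 0 as well. The 4 cytoskeletal genes, the microtubule protein genes Dcx, Tubb3 and Map2 and the growth cone gene Stmn2, also had 0. Among genes of transmission and secretion, Syn1 of synaptic vesicles, Gad1 and Gad2 of GABA synthesis, and Reln, the secreted guide of cortical layering, had 0. The absence of a listed peak does not show that Bcl6 is absent there, since a weaker signal would miss the cutoff at this depth.

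For these 22 genes, the distance from the gene interval to the nearest peak centre had a median of 295 kb. Over all 29 it was 199.9 kb, against 132 kb for all protein-coding genes (quartiles 18.9 and 583 kb), and 20 of the 29 were farther away than that median. A peak centre within 100 kb was found for 9 of the 29 neuron genes (31.0%), against 45.2% of all protein-coding genes.

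Neurod2 was the nearest of the 22, with a peak of 30.9-fold 28.6 kb away, centred 100 bp from the TSS of Stard3. Nhlh2 and Nhlh1 followed at 68.5 kb and 69.0 kb, with peaks of 41.2-fold listed for Casq2 and of 22.4-fold listed for Pex19. Gad1 was 86.8 kb from a peak of 18.0-fold at the TSS of Sp5, and Reln 99.2 kb from a peak of 24.9-fold between the TSSs of Dnajc2 and Psmc2. In 18 of the 22 cases (81.8%) the nearest peak was within 1 kb of the TSS of another gene, against 67% of all protein-coding genes without a listed peak and 56.0% of all peaks. Bcl11b had the strongest such neighbour, 60.7-fold at the promoter of Ccdc85c, 271 kb away.

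The nearest peak was over 1 Mb away for 6 of the 22, at 1.14 Mb for Neurod1, 1.38 Mb for Neurod4, 1.68 Mb for Tbr1, 2.07 Mb for Gad2, 3.22 Mb for Pou3f3 and 6.54 Mb for Dcx. These are 20.7% of the 29, near the 16.6% of all protein-coding genes with no peak within 1 Mb. A window of 1 Mb on both sides of the gene held 32 peaks for Slc17a7, 23 for Cux1, 20 for Elavl3 and 12 for Cux2, against a median of 4 for all protein-coding genes. It held 3 for Myt1l and 1 each for Pou3f2 and Elavl4. Neurod2 also lay among many peaks, with 22 in its window and 0 listed for it. The part of local peak density in the listing was not tested.

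**Figure D4:**
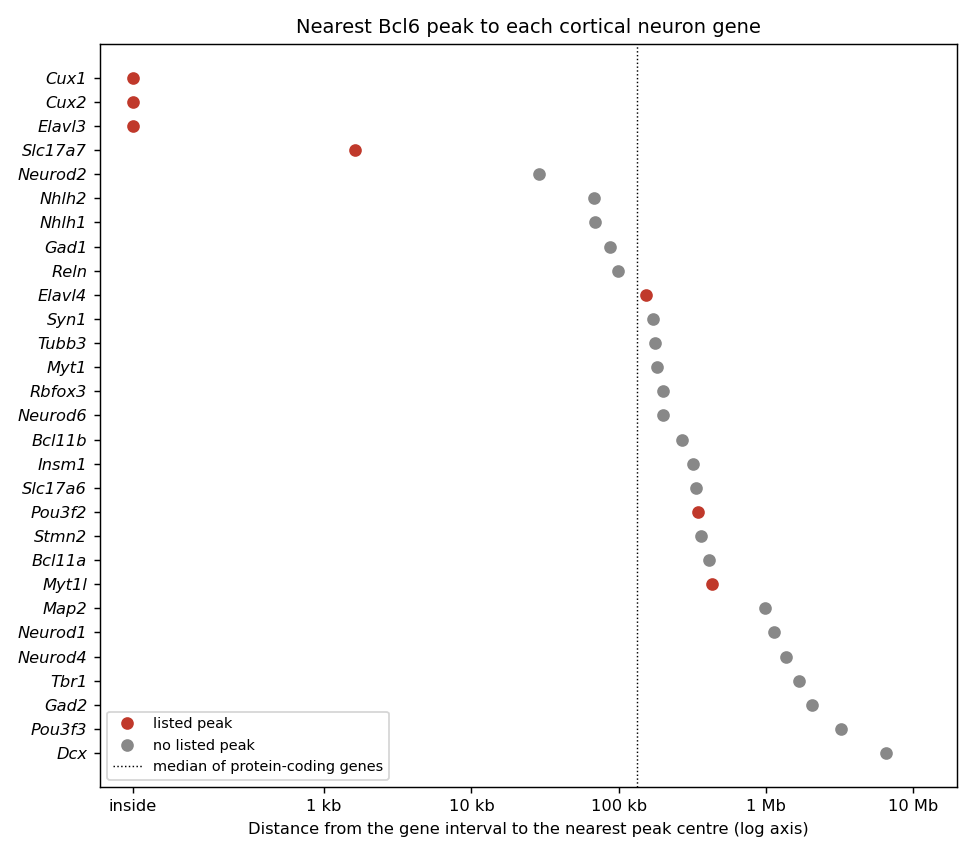
Distance from the annotated interval of each of the 29 neuron genes to the nearest peak centre, on a log axis, with genes whose interval holds a peak centre marked as inside. Red points are the 7 genes with a listed peak, grey points the 22 without, and the dotted line is the median of all protein-coding genes, 132 kb. The genes run from Cux1, Cux2 and Elavl3, with a peak inside, to Dcx at 6.54 Mb.

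Promoter sequences of the neuron genes gave no match to the core letters of the Bcl6 motif, which are rare in promoters of all genes. Promoter windows of RefSeq were at hand for 27 of the 29 genes, 40 windows in all, and a peak overlapped that of Cux1 alone, 3.70% of the 27, against 12.2% of 17492 protein-coding genes with a window. The letters TTCCTNGAA, on either strand, were in the windows of 0 of the 27 genes and of 1.64% of all. TTCCNNGAA was in 0 of the 27 and in 5.41% of all. The loosest form, TTCNNNGAA, which every match to the others also matches, was in 1 of the 27 and in 8.92% of all. At such low shares, counts of 0 or 1 among 27 genes are near the background and are not results about neuron genes. Among genes whose window a peak overlapped, TTCCTNGAA was in 1.45%, TTCCNNGAA in 5.99% and TTCNNNGAA in 8.47%. The match was in Bcl11a, which had 0 listed peaks, 224 bases before the TSS at chr11:24080445-24080744 on the plus strand, with the matching letters in capitals.
Bcl11a: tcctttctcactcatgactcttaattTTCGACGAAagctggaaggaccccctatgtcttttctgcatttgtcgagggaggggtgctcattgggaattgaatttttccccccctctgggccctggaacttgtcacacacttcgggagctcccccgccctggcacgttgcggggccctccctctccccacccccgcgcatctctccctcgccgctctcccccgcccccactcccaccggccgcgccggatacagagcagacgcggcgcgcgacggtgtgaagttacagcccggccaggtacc
A match is a description of letters and not a binding site. The windows of the neuron genes had a median of 55.0% GC and 7.5 CG pairs, against 65.3% and 26 for all windows overlapped by a peak, and 56.3% and 13 for all windows.

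Related groups of genes gave other shares. Over all protein-coding genes, 20.1% had a listed peak and 10.8% had 1 within 1 kb of the TSS. The summed gaps to neighbouring genes had a median of 433 kb for progenitor, 249 kb for other neuronal and 289 kb for axon guidance genes. They were 153 kb for the neuron genes and 48.0 kb for all. The part of this spacing in the shares was not tested. The progenitor and other neuronal lists overlap, since both hold Eomes, Pou3f1 and Pou3f4, so the promoter peak of Pou3f1 counts in both. The peak listed for Elavl4 also counts for Dmrta2, a gene of the progenitor list. Of 32 cortical progenitor genes, 15 had a listed peak (46.9%) and 7 had 1 within 1 kb of the TSS (21.9%). The highest folds were those of Sox2 (55.9-fold, 95.1 kb away), Id4 (39.4-fold, 15.8 kb away) and Emx1 (37.4-fold, 77 bp away). Of 60 other neuronal genes, 16 had a listed peak (26.7%) and 4 had 1 within 1 kb (6.67%). The highest folds there were at Gap43 (193-fold, 430 kb away), Ncam1 (72.7-fold, 47.1 kb away) and Syt1 (47.7-fold, 574 kb away). Of 43 axon guidance genes, 14 had a listed peak (32.6%) and 8 had 1 within 1 kb (18.6%). Their highest folds were at peaks far from the TSS, of Efnb2 (47.3-fold, 176 kb away), Plxnc1 (37.8-fold, 231 kb away) and Ephb3 (37.4-fold, 415 kb away).

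Within 1 kb the neuron genes had the lowest share of these 4 lists, by 1 gene. Within 2 kb the share was 10.3% of the neuron genes, 31.2% of the progenitor genes, 10.0% of the other neuronal genes and 18.6% of the axon guidance genes, so that order does not hold. Listed peaks over 50 kb away were found for 17.2% of the neuron genes, 15.6% of the progenitor genes, 13.3% of the other neuronal genes and 18.6% of the axon guidance genes. A peak within 5 kb of the TSS or over the gene interval was found for 13.8% of the neuron genes, 37.5% of the progenitor genes, 15.0% of the other neuronal genes and 20.9% of the axon guidance genes, against 16.1% of all protein-coding genes. These differences between lists were not tested.

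**Figure D5:**
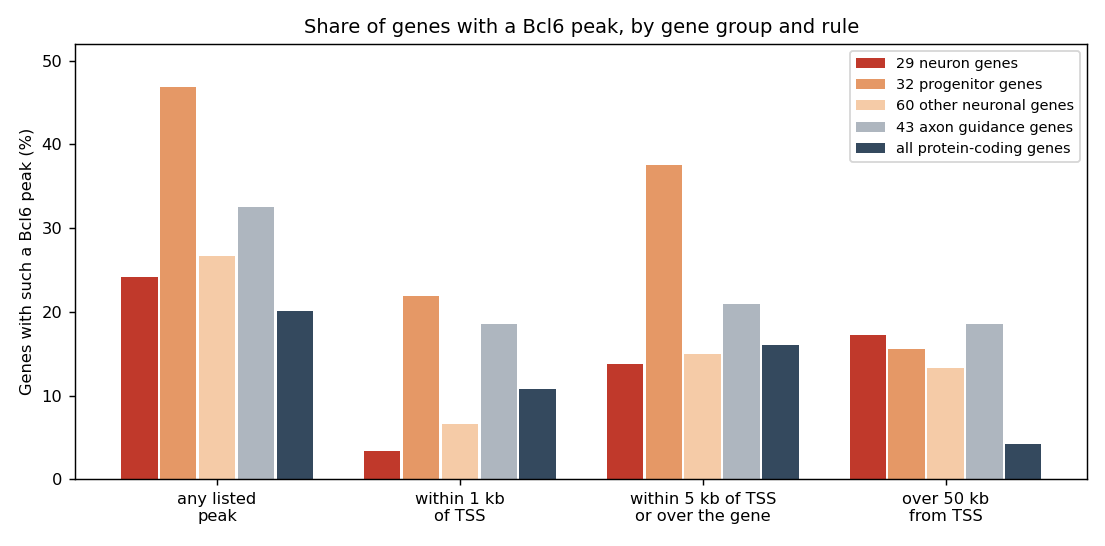
Percent of genes with a Bcl6 peak in the 29 neuron genes, 3 related lists and all protein-coding genes, under 4 rules. The neuron genes stand at 24.1, 3.45, 13.8 and 17.2%, and all protein-coding genes at 20.1, 10.8, 16.1 and 4.26%.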

How the data were processed

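The series had 6 libraries, 3 of Bcl6 ChIP and 3 of input, pooled by group per the series' design text. Reads were mapped with Bowtie to mm10, per the submitters' processing notes, and peaks were called with MACS 1.4.2 at a p-value cutoff of 1e-05, per the file headers. In the deposited table, tags are raw counts of ChIP tags per peak, fold enrichment is the authors' ratio over local input, the FDR is the authors' percent, and the score deposited by the authors is −10 log10 of p, a column whose name a spreadsheet had overwritten. Genes were assigned by the authors with GREAT 3.0.0, per the file headers.

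Peaks were joined to genes by peak number, and 98.5% of 5801 pairs matched a RefSeq gene of GRCm38.p6 on the same chromosome. All 29 genes matched by symbol. Background shares use 21887 protein-coding genes. Gene intervals, promoter windows and strand came from RefSeq tables, and promoter letters were searched on both strands by a search tested on simulated data. Distances are those of the peak centre. Tables were computed with pandas 2.3.3 and scipy 1.17.1 in Python 3.11.15. All 29 genes are named, with genes sharing or nearest to their peaks and the 3 highest folds of each related list. The genes, lists and settings were chosen with earlier results of these data known. No genome sequence was used, so peaks away from promoter windows were not searched for motifs. Alternatives were scores at or above the median, FDR, width, nearest TSS, other distance windows, the summit, tag density, all annotated genes and other motif letters. Backgrounds of genes longer than 50 kb and of genes without a listed peak were added after seeing the data.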

Additional observations from a re-analysis of the deposited data

How the results depend on the processing

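No paired analysis was possible because peaks were called once, on pooled ChIP against pooled input, and for the same reason no library could be left out. The count of 7 genes with a listed peak was 3 with scores at or above the median of all peaks (Cux1, Elavl3 and Pou3f2, against 10.8% of all protein-coding genes), 3 with listed peaks within 50 kb (17.1% of all), 4 where each peak went to the listed gene with the nearest TSS (14.8% of all), and 4 with peaks within 5 kb or over the gene. It was 7 with an FDR of at most 5% (20.0% of all) and with peaks at most 2 kb wide (16.6% of all). The share of all protein-coding genes within 5 kb or over the gene was 16.1%. With all annotated genes as the background, the main count of 7 stood against 8.95%. The 5 peaks over 50 kb away were 1 under the nearest TSS and 1 with the higher scores. The 1 gene with a peak within 1 kb became 3 with windows of 2 kb and of 5 kb, by Elavl3 and Slc17a7. Over all protein-coding genes these windows gave 11.6% and 12.8%. By the summit the count was 1, against 8.78% of all. The median of 21.7-fold was 35.5-fold with the higher scores, 20.6-fold under the nearest TSS and 27.6-fold over the strongest peak of each gene. The median percentile of the 9 peaks was 54.0 by fold and 31.3 by tags per kb. The windows with Bcl6 letters were 0, and 1 with TTCNNNGAA and 0 with TTCCNNGAA (5.41% of all). The changes in counts came with settings that kept fewer peaks, gave peaks to another listed gene, widened windows or loosened letters. The cause of the shift to tags per kb was not tested.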

Other observations

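In families of the 29 genes, with relatives chosen after the values were known, 10 of 38 copies (26.3%) had a listed peak, against 20.1% of all protein-coding genes, so the values below describe single copies and not the families. Pou3f1 had a promoter peak, 17.0-fold and 419 bp before the TSS, while the peak of Pou3f2 was 347 kb away and Pou3f3 and Pou3f4 had 0. Stmn1, a microtubule regulator already active in progenitors, had 2 peaks, up to 17.6-fold with 153 tags 199 bp downstream of its TSS, while Stmn2, Stmn3 and Stmn4 had 0. Rbfox2 had 4 peaks, up to 33.7-fold, while Rbfox1 and Rbfox3 had 0. In the Elavl family, Elavl3 and Elavl4 had peaks and Elavl1 and Elavl2 had 0.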
